A study of Mus musculus with 11 samples.

Results

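The subunits of oxidative phosphorylation were examined in livers of mice lacking Gsr, the gene of glutathione reductase, and of wild-type (WT) mice. Members were all genes with a probe set of 1 gene symbol whose symbol names a nuclear-encoded subunit of respiratory complexes I to IV or of ATP synthase (complex V), from the families Nduf, Sdh, Uqcr, Cox4 to Cox8 and Atp5. This gave 79 genes of 12393 on the array, with 33 in complex I, 4 in complex II, 8 in complex III, 17 in complex IV and 17 in complex V. Ndufa4 was counted with complex IV, where its protein is found. Where a gene had several probe sets, the one with the highest mean of the 11 arrays stood for it.

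Liver RNA came from 5 WT and 6 Gsr-null males on the C57BL/6J background, aged 15 to 20 weeks and harvested between 2 and 4 in the afternoon. The labels name no treatment and do not say how Gsr was disrupted. Replicates were numbered as in the sample titles, which call them biological replicates. Values are the deposited log2 values of single-colour Affymetrix arrays, so a difference of 1 is a doubling, and the numbers of arrays, 5 and 6, limit the precision.

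Glutathione reductase regenerates reduced glutathione from its disulfide with NADPH, and the mitochondrial glutathione pool helps to remove peroxide formed by the respiratory chain. Complexes I and II pass electrons from NADH and succinate to ubiquinone, complex III passes them to cytochrome c, and complex IV to oxygen. Complexes I, III and IV pump protons, and ATP synthase uses the proton gradient to make ATP. Most subunits are encoded in the nucleus, and hepatocytes, rich in mitochondria, express them at high levels.

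Gsr itself was 6.62 to 6.93 in WT and 4.71 to 5.29 in Gsr-null livers, without overlap; Gsr fell by 1.83 (limma, SE 0.123, adjusted p = 1.82e-05). Pearson's r across probe sets was 0.935 to 0.989 between samples. The 6 tested hepatocyte markers had no called member, and the log2 of their summed signal was 16.2 to 16.5 in WT and 16.3 to 16.5 in Gsr-null livers. Of the striated muscle markers 5 of 5 lay under a log2 value of 4 in every liver. Markers of Kupffer cells, endothelium, stellate cells, neutrophils and erythroid cells had 0 called members, against 0.387% of all tested probe sets. The stellate markers Col1a2 and Col3a1 differed by 0.89 (SE 0.295, limma adjusted p = 0.363) and 0.87 (SE 0.493, adjusted p = 0.736). Dcn, of the same list, went the other way, at -0.10 (SE 0.152, adjusted p = 0.968), and Col1a1 and Lrat lay under 4. Of the erythroid markers, Alas2 differed by 0.59 (SE 0.242, limma adjusted p = 0.509), and Hba-a1 lay under 4 in every liver. The neutrophil markers S100a8 and S100a9 were 6.63 and 6.50 in Gsr-null replicate 1 and at most 3.63 in the other livers. Of the same list, Ngp was 2.90 in Gsr-null replicate 1 and Lyz2 was 7.73, within its WT range of 7.40 to 8.01. Lyz2 differed by -0.40 between genotypes (SE 0.254, limma adjusted p = 0.797). The brown fat marker Ucp1 lay under 4, while Cidea was 8.74 and 8.04 in Gsr-null replicates 4 and 5 and at most 3.55 in the other livers. In bulk liver, fewer cells of a type and less RNA per cell cannot be told apart.

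Transcripts of the respiratory chain and ATP synthase differed little between the genotypes. Of the 79 members, 71 passed the filter of a log2 value above 4 in at least 5 samples, and 0 of these 71 passed the test (limma, adjusted over all 9560 tested probe sets, adjusted p under 0.05), where 0.432% of the 6021 tested genes did. At an unadjusted p under 0.05 there were also 0 members, against 8.79% of tested genes. In 0 of 71 members were the genotypes without overlap, against 1.51% of tested genes. The smallest p belonged to Ndufa6 (limma adjusted p = 0.797).

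Differences, Gsr-null minus WT, ran from -0.17 to 0.17 over the 71 members, whereas they ran from -3.43 to 4.98 over all tested genes. Their median was 0.012, and -0.032 over all tested genes. The median size of the difference was 0.04 for members and 0.13 for all tested genes. Members also varied less within genotypes, with a median pooled SD of 0.198, against 0.283 for all tested genes. Tested members had high signal, with means from 9.26 to 13.5, where the median of tested probe sets was 6.77 to 6.99 per array. The part of signal level in these smaller values was not tested. Of the members 40 had a difference above 0 and 31 below, against 42.7% above 0 among tested genes, and centring each array on its median made that 55 above. Without Gsr-null replicate 4 the count above 0 was 21. The 95% interval of the difference lay within 0.5 of 0 in 66 of 71 members and within 1 in 70. The exceptions to the first bound were Ndufa5 (-0.56 to 0.28), Ndufa8 (-0.25 to 0.56), Ndufb6 (-0.51 to 0.52), Cox6c (-0.39 to 0.56) and Atp5o (-0.91 to 1.17).

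**Figure D1:**
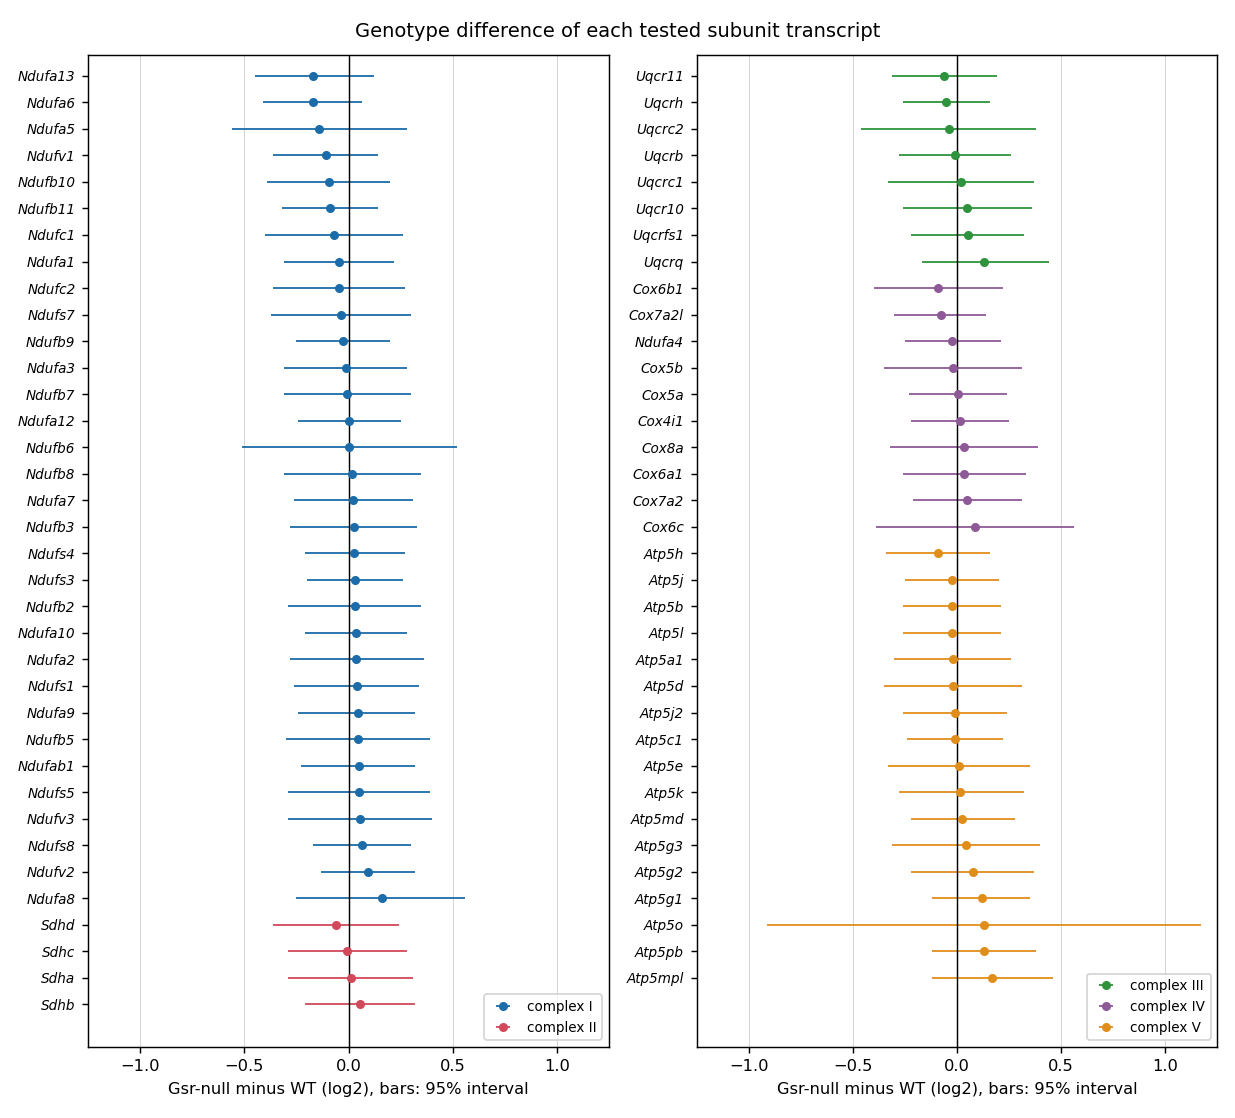
Difference between Gsr-null (n = 6) and WT (n = 5) livers in log2 units for each of the 71 tested subunits, coloured by complex and ordered within it, with the 95% interval from limma as bars. Every interval contains 0, and Atp5o has the widest, from -0.91 to 1.17.

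In complex I, the NADH dehydrogenase, 32 of 33 members were tested, 19 of them above and 13 below 0, with a median of 0.021. Its 6 tested core subunits, among them those that bind the flavin and the iron-sulfur clusters that carry electrons, had differences of -0.11 to 0.1. Ndufv1, which binds the flavin that accepts electrons from NADH, was 10.57, 10.68, 10.73, 10.56 and 10.74 in WT livers. In Gsr-null livers Ndufv1 was 10.27 to 10.82 with a median of 10.53, overlapping the WT range at both ends. The difference was -0.11 (SE 0.116, limma adjusted p = 0.945). Ndufs1, the largest subunit with iron-sulfur clusters, differed by 0.04, from 9.75 ± 0.147 (SD, n = 5) to 9.79 ± 0.249 (SD, n = 6).

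The 26 tested accessory subunits of complex I, which surround and stabilise the core, ran from -0.17 to 0.16 with a median of 0.011. Ndufa6 was 11.12, 11.07, 11.35, 11.02 and 11.26 in WT livers and 10.85 to 11.17 with a median of 10.96 in Gsr-null livers. Of the Gsr-null values 4 lay below every WT value and the others within the WT range. The difference was -0.17 (SE 0.108, 95% interval -0.41 to 0.064, limma adjusted p = 0.797). Ndufa1, a small membrane subunit, differed by -0.048 (SE 0.123). The 3 members on chromosome 8, which also carries Gsr, are Ndufa13, Ndufb7 and Cox4i1, with 0 called.

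Complex II, succinate dehydrogenase, is also an enzyme of the citrate cycle and has no subunit encoded in mitochondrial DNA. All 4 of its genes were tested, with 2 differences above and 2 below 0 and a median of 0.0028. Sdha, the flavoprotein that oxidises succinate, was 10.95, 11.04, 10.97, 10.74 and 10.97 in WT livers. In Gsr-null livers Sdha was 10.59 to 11.24 and averaged 10.9 ± 0.262 (SD, n = 6), the WT values lying inside that range. The difference was 0.012 (SE 0.137, limma adjusted p = 0.999). Sdhb, its iron-sulfur partner, differed by 0.056 (SE 0.124), from 11.2 ± 0.126 (SD, n = 5) to 11.3 ± 0.208 (SD, n = 6).

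Complex III, the cytochrome bc complex, had 8 of 8 members tested, 4 above and 4 below 0, with a median of 0.0038. Uqcrfs1, the Rieske iron-sulfur protein that takes electrons from ubiquinol, differed by 0.051 (SE 0.124) and Uqcrc1, a core protein, by 0.018 (SE 0.161). Uqcrb, a small subunit at the ubiquinone-binding region, differed by -0.01 (SE 0.126). Uqcrq had the smallest p of the complex and was 10.80, 11.18, 11.22, 10.97 and 11.34 in WT livers. Its Gsr-null values were 10.92 to 11.55 with a median of 11.27, overlapping those of WT, and its difference was 0.13 (SE 0.141, limma adjusted p = 0.945).

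Complex IV, cytochrome c oxidase, had 10 of 17 members tested, 6 above and 4 below 0, with a median of 0.0098. Cox4i1, the regulatory subunit that binds ATP, was 12.48, 12.63, 12.66, 12.47 and 12.78 in WT livers and 12.44 to 12.81 with a median of 12.60 in Gsr-null livers. These ranges nearly coincide, and the difference was 0.014 (SE 0.106, 95% interval -0.22 to 0.25, limma adjusted p = 0.999). Cox5a differed by 0.0053 (SE 0.107) and Cox6a1 by 0.034 (SE 0.135). Cox7a2l, a factor that joins complexes III and IV into supercomplexes, had the smallest p of the complex, with a difference of -0.079 (SE 0.10, limma adjusted p = 0.961).

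Several complex IV subunits exist as tissue isoforms encoded by separate genes, and the array carried both forms of most. In each family the form that other tissues than muscle use was well above the filter and passed the test's filter in all 11 livers. Cox6a1, Cox6b1, Cox7a2 and Cox8a averaged 13.4, 12.6, 12.1 and 9.5 in WT livers and 13.5, 12.5, 12.2 and 9.54 in Gsr-null livers. Their differences were 0.034, -0.089, 0.048 and 0.033, with 0 called.

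The alternative forms lay below the filter in both genotypes. The heart and muscle isoform Cox6a2 was 2.09 to 2.29 in WT and 1.98 to 2.24 in Gsr-null livers, and Cox8b, of muscle and brown fat, 1.90 to 2.31 and 1.85 to 2.41. Cox4i2, the lung isoform induced by low oxygen, was 2.12 to 2.46 and 2.24 to 2.54, and the testis isoforms Cox6b2 and Cox8c were at most 2.39 and 2.86 in any liver. Cox7a1, the heart and muscle isoform, was 2.84 to 3.87 in WT and 2.67 to 3.46 in Gsr-null livers, where the median of all probe sets was 3.18 to 3.32 per array. Its means were 3.44 ± 0.388 (SD, n = 5) and 2.98 ± 0.29 (SD, n = 6), farther apart than those of any tested member. All of these lay below 4 in 11 of 11 livers, so they were not tested, and absence of the transcripts cannot be read from these signals.

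**Figure D2:**
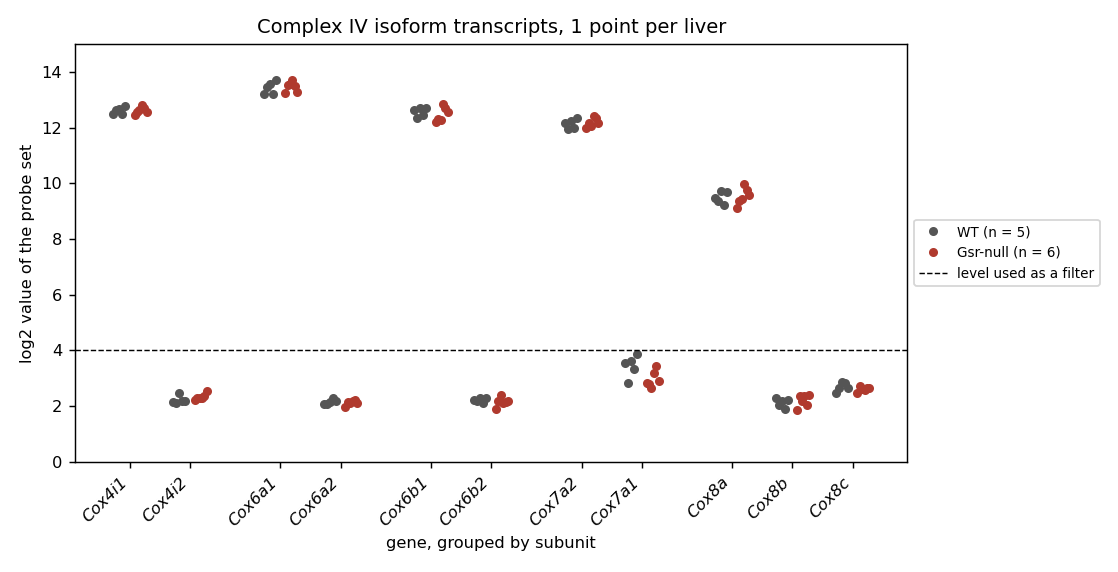
Log2 values of the representative probe sets of complex IV isoform genes, 1 point per liver, WT in grey (n = 5) and Gsr-null in red (n = 6), with the filter level of 4 as a dashed line. Cox4i1, Cox6a1, Cox6b1, Cox7a2 and Cox8a lie above 9 in all 11 livers, and their alternative isoforms below 4. Signals of different probe sets do not order the transcripts by abundance.

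A further pair of members below the filter are subunits that complexes I and IV use in all tissues. Ndufb1 was 3.22 to 3.82 in WT and 3.22 to 3.63 in Gsr-null livers. Cox7c was 2.47 to 3.16 and 2.48 to 2.82, and its other probe set lay below 4 as well. Where these probe sets lie on their transcripts was not analysed here, and their low signal gives no level for either gene.

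ATP synthase had 17 of 17 members tested, 9 above and 8 below 0, with a median of 0.01. Atp5b, the catalytic beta subunit, was 12.13, 12.48, 12.31, 12.40 and 12.32 in WT livers. In Gsr-null livers Atp5b was 12.06 to 12.44 with a median of 12.32, so the ranges overlapped almost fully, and the difference was -0.025 (SE 0.107, limma adjusted p = 0.999). Atp5a1, the alpha subunit, differed by -0.021 (SE 0.13). The 3 genes of the proton-carrying c ring, Atp5g1, Atp5g2 and Atp5g3, differed by 0.04 to 0.12 with a median of 0.077 and 0 called.

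Of the stalk and membrane subunits of ATP synthase, Atp5mpl had the smallest p. Atp5mpl was 9.99, 9.89, 10.32, 10.06 and 10.33 in WT livers and 10.07 to 10.58 with a median of 10.22 in Gsr-null livers. The upper Gsr-null values exceeded every WT value, the others did not, and the difference was 0.17 (SE 0.134, limma adjusted p = 0.873). Atp5pb, the peripheral stalk subunit b, differed by 0.13 (SE 0.116) on its representative probe set and by 0.26 (SE 0.127, limma adjusted p = 0.638) on its other one. That second value had the smallest unadjusted p, 0.0624, of all 128 tested probe sets of the members.

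All 150 probe sets of the members were also considered one by one. Of these 128 passed the filter, and 0 were called, where 0.387% of all tested probe sets were. At an unadjusted p under 0.05 there were again 0, against 8.36%. The largest difference on any of them was 0.36, on a second probe set of Sdhc, the membrane anchor of complex II (SE 0.204, limma adjusted p = 0.741). Of 57 further tested probe sets of members, 32 had the sign of the representative one. Representative probe sets of 19 of the 71 tested members have identifiers ending in _s_at or _x_at, a type that can bind transcripts of related genes. Those of a further 27 end in _a_at, a type for alternative transcripts of 1 gene.

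Although the genotypes were close, individual livers differed, and they did so for many subunits at once. After subtracting each gene's mean over 11 samples, the median over the 71 members was -0.0234, -0.121, 0.104, -0.102 and 0.136 in WT replicates 1 to 5. In Gsr-null replicates 1 to 6 the same median was -0.155, -0.0256, -0.0382, 0.195, 0.0934 and -0.0231. The genotypes thus spanned nearly the same range, with an SD of 0.117 between WT and 0.121 between Gsr-null livers. In Gsr-null replicates 4 and 5 there were 64 and 66 of 71 members above their own mean. In Gsr-null replicate 1, the liver with high values of the markers S100a8 and S100a9, there were 10. The part of these markers in that value was not tested.

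These shifts went with a measure of RNA integrity and labelling, the difference between the 3' and 5' probe sets of the array's Gapdh and Actb controls. That difference was 0.544 to 0.703 in 2 WT and 3 Gsr-null livers and 1.2 to 1.75 in 3 WT and 3 Gsr-null livers, and its genotype means differed by -0.21 (exact two-sided permutation p = 0.448). The median of the members was -0.155 to -0.0256 in the 5 livers of the lower set and -0.0234 to 0.195 in the 6 of the higher set, without overlap though by a narrow margin. Over all tested genes the medians of the sets overlapped, at -0.0517 to 0.02 and -0.136 to 0.0807.

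**Figure D3:**
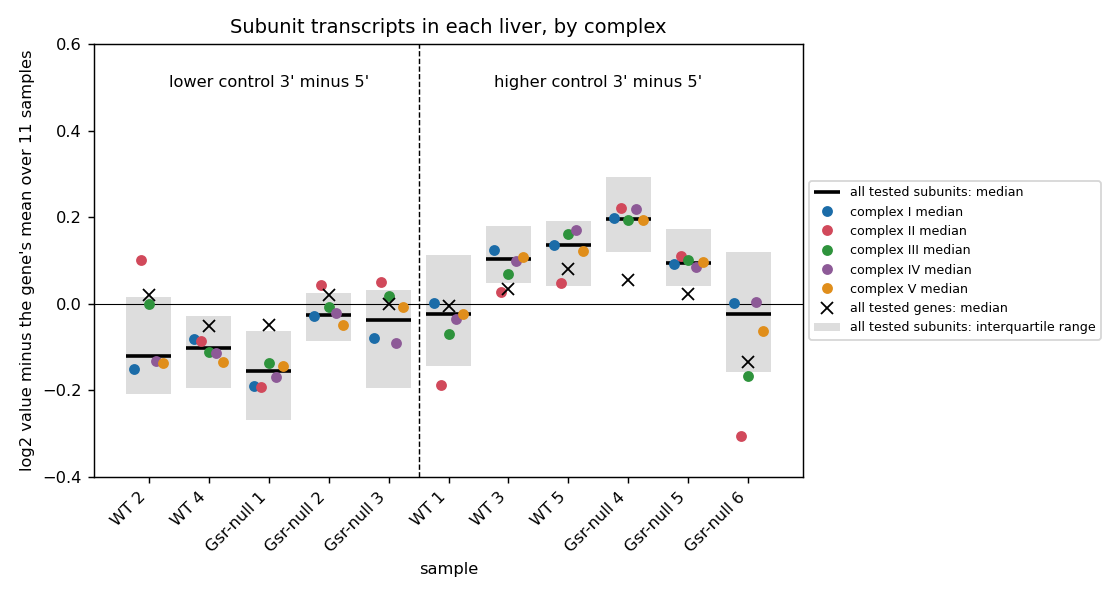
Log2 value minus the gene's mean over 11 samples, for each liver: black bars give the median and grey boxes the interquartile range over 71 tested subunits, coloured points the median of each complex, and crosses the median of all tested genes. Livers are ordered by the set of the control 3' minus 5' difference, and the subunit median runs from -0.155 to -0.0256 in the lower set and from -0.0234 to 0.195 in the higher one.

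The difference between the sets was fitted with genotype in the model and read on representative probe sets only. Of the members, 63 of 71 were higher in the set of higher 3' minus 5' difference, against 55.0% of tested genes. Other probe sets were not counted and did not all show such a rise. The second one of Ndufc2 was 10.17 to 10.25 in the lower set and 9.96 to 10.29 in the higher set. The median difference between the sets was 0.19 for members and 0.031 for all tested genes. Ndufa5, an accessory subunit of complex I, rose by 0.56 (SE 0.11, limma adjusted p = 0.013), Ndufs5 by 0.42 (adjusted p = 0.0254) and Cox6b1 by 0.37 (adjusted p = 0.0463). These 3 were the members called, against 1.76% of tested genes called higher, and at an unadjusted p under 0.05 there were 24 members, against 17.3% of tested genes. Which part RNA integrity has in this was not tested. The sets were drawn from the control probe sets and are not groups of the study.

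Ndufa5 showed the pattern in every liver. It was 10.44 and 10.87 in WT replicates 2 and 4 and 10.51, 10.58 and 10.35 in Gsr-null replicates 1, 2 and 3, all of the lower set. In the higher set it was 11.09, 11.26 and 11.02 in WT replicates 1, 3 and 5 and 11.13, 11.09 and 11.13 in Gsr-null replicates 4, 5 and 6. The sets did not overlap, whereas the genotypes did. Its second probe set gave 8.70 to 8.97 in the lower set and 9.11 to 9.38 in the higher one, again without overlap. The second probe set of Cox6b1 did overlap, at 10.44 to 10.81 in the lower set and 10.51 to 10.94 in the higher one. Ndufs5 had no other probe set.

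The difference between the sets was also read for each complex, on representative probe sets. Higher in the higher set were 31 of 32 tested members of complex I, 10 of 10 of complex IV, 14 of 17 of ATP synthase, 6 of 8 of complex III and 2 of 4 of complex II. Median differences between the sets were 0.22, 0.19, 0.17, 0.1 and -0.014 in that order. Whether these medians differ from each other was not tested.

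Within the sets the genotype difference stayed small. The median over the 71 members was -0.0036 among livers of the lower set and 0.018 among those of the higher set, and 0.026 with the sets as a block. At an unadjusted p under 0.05 there were 0 members in either set, against 11.5% of tested genes in the lower and 9.37% in the higher. The interaction of set and genotype was called in 0 members, as in 0.0% of tested genes. At an unadjusted p under 0.05 it held 1 member, Ndufs7, against 11.9% of tested genes. For Ndufs7 the genotype difference in the lower set minus that in the higher set was 0.42 (limma adjusted p = 0.417).

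**Figure D4:**
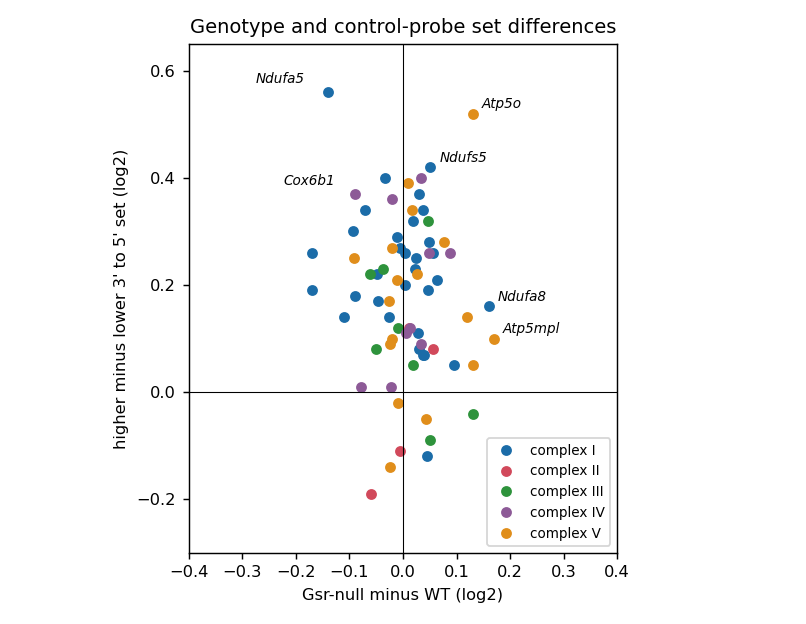
Each point is 1 of 71 tested subunits, with its difference between genotypes (Gsr-null minus WT) on the horizontal axis and its difference between the sets of higher and lower control 3' minus 5' difference on the vertical axis, in log2 units at equal scale. Genotype differences run from -0.17 to 0.17, while 63 of 71 points lie above 0 on the vertical axis and Ndufa5 reaches 0.56. Values are those of representative probe sets.

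Over the 11 livers 52 of 71 members had a Pearson's r above 0.5 with the median of the members, to which each contributes, and 8 had one below 0. Outside the members, the genes most like that median were Kmt5a (r = 0.961), Mrpl57 (0.952) and Mrpl11 (0.942), both proteins of the mitochondrial ribosome, Naa38 (0.939) and Med9 (0.926). These are descriptions over 11 samples, which share their arrays and normalization. None of the 5 differed between genotypes (limma adjusted p of 0.942 to 0.999).

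A small number of representative probe sets followed another course, which crossed genotype as well. Atp5o, the stalk subunit that confers oligomycin sensitivity, was 11.40, 9.32, 10.51, 10.93 and 9.15 in WT livers. In Gsr-null replicates 1 to 6 it was 10.51, 10.54, 8.98, 10.12, 10.67 and 11.51. Its range of 2.53 was by far wider than the genotype difference of 0.13 (SE 0.479, limma adjusted p = 0.999). On the second tested probe set of the gene all 11 livers lay between 9.92 and 10.09, a range of 0.174, with a difference of 0.043 (SE 0.0865, limma adjusted p = 0.983).

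Ndufb6, a membrane subunit of complex I, and Cox6c, a small subunit of complex IV, repeated the pattern of Atp5o. Ndufb6 was highest in WT replicate 1 at 12.23 and Gsr-null replicate 6 at 12.29, and lowest in WT replicate 2 at 11.17 and Gsr-null replicate 3 at 11.12. Cox6c was likewise highest in those first livers, at 12.70 and 12.68, and lowest in WT replicates 2 and 5, at 11.58 and 11.61. Uqcrc2, a core protein of complex III, was 11.59 and 11.69 in WT replicate 1 and Gsr-null replicate 6 and 10.58 in Gsr-null replicate 3.

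Pearson's r with Atp5o over 11 samples was 0.964 for Ndufb6, 0.95 for Cox6c and 0.923 for Uqcrc2. In each of these genes a second tested probe set did not follow the first, with r between the probe sets of 0.38 for Atp5o, 0.336 for Ndufb6, -0.568 for Cox6c and -0.064 for Uqcrc2. These 4 genes were chosen after their values were seen, for their wide spread and their shared course, so the correlations are a description only. Only the members of widest spread were correlated with Atp5o. Ndufa5 (pooled SD 0.335, r = 0.523) and Ndufa8 (pooled SD 0.319, r = -0.623) did not share the course to that degree. The course was not confined to these 4 genes. Ndufb5, of smaller pooled SD (0.26), was highest in WT replicate 1 and Gsr-null replicate 6, at 12.13 and 12.17. It was lowest in WT replicate 2 and Gsr-null replicate 3, at 11.37 and 11.51. Its second probe set ran opposite, with r = -0.856 to the first. The pattern did not follow the control 3' minus 5' sets: WT replicates 1 and 5, highest and lowest for Atp5o in WT, both belong to the higher set.

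**Figure D5:**
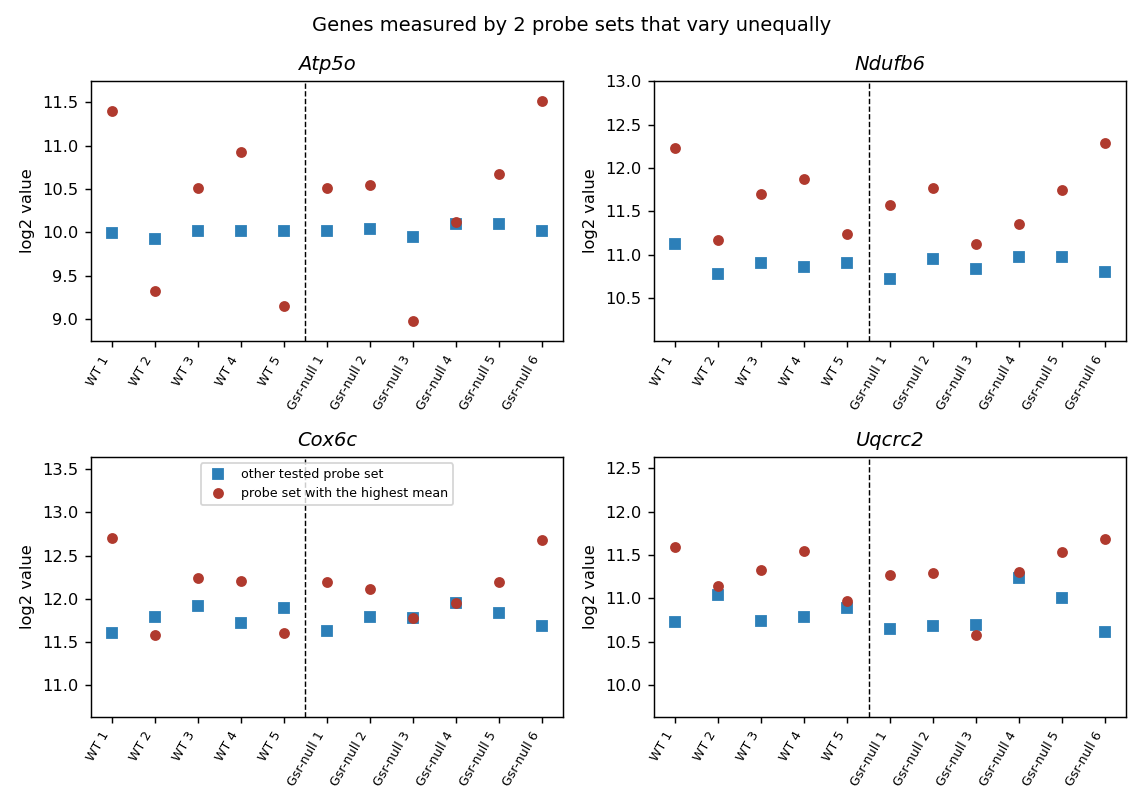
Log2 values of Atp5o, Ndufb6, Cox6c and Uqcrc2 in 5 WT and 6 Gsr-null livers on both tested probe sets of each gene, red circles for the probe set with the highest mean and blue squares for the other. All panels span the same number of log2 units, and the range for Atp5o is 2.53 on the first probe set and 0.174 on the second.

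The median of the 4 complex II genes after centring was lowest in Gsr-null replicate 6 at -0.306, Gsr-null replicate 1 at -0.192 and WT replicate 1 at -0.187. It was highest in Gsr-null replicate 4 at 0.22. The median of complex I was 0.00165, -0.19, 0.00206 and 0.198 in those livers, so the complexes lay close together in Gsr-null replicates 1 and 4 and apart in the others. They were also apart in WT replicate 2, at 0.10 for complex II and -0.152 for complex I. In Gsr-null replicate 6 complex III was low as well, at -0.168, and the median of all tested genes was -0.136.

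Genes that build, feed and regulate the chain were compared from fixed lists. Of 8 tested assembly factors of complex I, 0 were called, against 0.432% of tested genes, and 2 had an unadjusted p under 0.05, against 8.79%. These were Foxred1 at -0.64 (SE 0.177, limma adjusted p = 0.242) and Timmdc1 at -0.35 (SE 0.15, adjusted p = 0.55). Foxred1 was called with the control 3' minus 5' sets as a block (difference -0.58, limma adjusted p = 0.0141), a fit that called 0.515% of tested genes. Among 23 tested assembly factors of the other complexes 0 were called, the smallest p being that of Atpaf2, which assembles the catalytic part of ATP synthase, at -0.36 (SE 0.134, adjusted p = 0.471).

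A list of cytochrome c, Hccs, Cyc1 and enzymes that feed ubiquinone, 10 tested, had 0 called, 4 differences above 0 and a median of -0.011. Cyc1, cytochrome c1 of complex III, lies outside the symbol families of the members and differed by -0.015 (SE 0.162). Cycs, cytochrome c itself, differed by 0.0029 (SE 0.097) and Hccs, which attaches its heme, by -0.23 (SE 0.193). Of 8 tested genes of ubiquinone synthesis 0 were called, with Coq4 at -0.70 (SE 0.207, limma adjusted p = 0.282). Citrate cycle genes and pyruvate dehydrogenase, 16 tested, had 0 called and a median of 0.018.

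Adenine nucleotide and phosphate carriers, 6 tested, had 0 called, with Vdac1, the outer membrane channel, at -0.19 (SE 0.123). The single probe set found for a gene of mitochondrial DNA, that of the complex I subunit ND5, was 12.68 to 13.04 in WT and 12.73 to 13.14 in Gsr-null livers, and differed by 0.082 (SE 0.112, limma adjusted p = 0.965).

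Of 11 tested regulators of mitochondrial genes 0 were called, 2 had a difference above 0 and the median was -0.12, against -0.032 for all tested genes. Ppargc1b, a coactivator of mitochondrial gene transcription, was 5.36 to 6.21 in WT livers and 3.95 to 5.41 in Gsr-null livers. It differed by -0.79 (SE 0.255, limma adjusted p = 0.343). Its relative Ppargc1a differed by -0.34 (SE 0.307), and Tfam, the packaging and transcription factor of mitochondrial DNA, by -0.12 (SE 0.17).

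Promoters of the members were searched for letters bound by known regulators of respiratory genes. Whether the matches go with the shifts between livers was not tested. RefSeq promoters of assembly GRCm38.p6, with 250 bases before and 50 after the start, were found for 65 of 79 members, 70 promoters in all. The letters GCATGCGC, the core of the site of nuclear respiratory factor NRF1, occurred on either strand in 9 of 70 (12.9%), against 2.71% of all 32851 promoters and 5.62% of those of tested genes. CCGGAAG, of ETS factors such as GABP, occurred in 17 (24.3%), against 8.86% and 19.5%. AAGATGGC, of YY1, occurred in 9 (12.9%), against 2.75% and 5.06%. TGACCTTG, of estrogen-related receptors, occurred in 4 (5.71%), against 1.56% and 1.17%. GCATGCGC and its complement overlap within GCGCATGCGC, and a promoter with both was counted once. These are matches of letters in a window, not sites of binding.

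Both the NRF1 and the ETS letters occurred in the promoters of 5 members, 1 from complex II, 1 from complex III, 1 from complex IV and 2 from ATP synthase. Their sequence up to the start is shown because they share both motifs across complexes. Each runs 5′ to 3′ on the gene's strand and ends at the last base before the start, with matches to these 2 motifs in capitals.
Sdhb, chr4:140961197-140961270, plus strand: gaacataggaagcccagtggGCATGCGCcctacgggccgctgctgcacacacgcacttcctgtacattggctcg
Uqcr11, chr10:80406822-80406907, minus strand: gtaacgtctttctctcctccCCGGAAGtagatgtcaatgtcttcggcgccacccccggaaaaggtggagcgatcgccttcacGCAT
Cox6a1, chr5:115348959-115349140, minus strand: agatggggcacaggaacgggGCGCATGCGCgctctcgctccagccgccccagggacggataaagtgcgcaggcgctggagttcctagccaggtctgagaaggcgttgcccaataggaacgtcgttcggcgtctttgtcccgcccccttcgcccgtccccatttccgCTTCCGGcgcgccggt
Atp5k, chr5:108434400-108434469, minus strand: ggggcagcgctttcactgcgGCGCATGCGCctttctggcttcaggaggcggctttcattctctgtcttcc
Atp5l, chr9:44920743-44920992, minus strand: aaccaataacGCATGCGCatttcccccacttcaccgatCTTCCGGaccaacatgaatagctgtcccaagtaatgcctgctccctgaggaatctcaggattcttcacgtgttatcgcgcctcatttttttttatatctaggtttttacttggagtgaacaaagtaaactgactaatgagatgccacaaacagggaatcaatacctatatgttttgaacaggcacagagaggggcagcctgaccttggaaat
In Uqcr11 the NRF1 letters begin 4 bases before the start and cross it, so the first 4 are shown, and in Sdhb and Atp5k the ETS letters lie after the start. Of the 9 YY1 matches 7 lay after the start on the gene's strand. Genotype differences of these 5 genes were 0.056 for Sdhb, -0.062 for Uqcr11, 0.034 for Cox6a1, 0.016 for Atp5k and -0.024 for Atp5l. The transcript of the factor Nrf1 itself lay below the filter, at 3.14 to 3.54 in WT livers and 3.16 to 3.50 in Gsr-null livers.

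The genes of the members are scattered over 19 chromosomes, with at most 9 on any 1 of them and 2, Ndufa1 and Ndufb11, on the X chromosome.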

How the data were processed

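Total RNA was extracted from liver and labelled with biotin from 1 µg, per the labels' protocols. The deposited log2 values, 1 per probe set and sample, were made by the authors; the submitters' processing notes name GCRMA, which models background from probe sequence, scales arrays to each other and gives 1 value per probe set. The log2 scale was read from the range and quantiles. Its version, any filters and any batches are not given in the sources used here. Scanner files were not used. Of 22690 probe sets 64 controls were left out. The platform annotation gave 1 symbol for 20380 of the remaining 22626, several for 691 and none for 1555. RefSeq entries (GRCm38.p6) were matched for 79 of 79 members by Entrez identifier.

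Genotypes were compared with limma 3.58.1 in R 4.3.3 (lmFit, eBayes) over the 9560 probe sets above 4 in at least 5 samples, with Benjamini-Hochberg adjustment, after the fit was tested on simulated data. Figures used matplotlib 3.10.9.

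Members, lists, alternatives and tests were chosen with earlier results of these data known. Named members are, per complex, those with the smallest p and highest mean, the core subunits Ndufs1, Ndufv1, Sdha, Sdhb, Uqcrc1, Uqcrfs1, Cox4i1, Cox5a, Atp5a1 and Atp5b, complex IV isoforms and members below the filter. Members at an unadjusted p under 0.05, without overlap, or with probe sets of opposite sign of which 1 had such a p, would also have been named. The 5 genes most like the member median were named too. For other lists it is the member with the smallest p. Atp5o, Ndufb6, Cox6c, Uqcrc2, Ndufa5, Ndufs5, Ndufs7, the second probe sets and a few list genes were named after their values were seen, and the set effect, its interaction and the promoter motifs were added then.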

Additional observations from a re-analysis of the deposited data

Results flagged for a closer look

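In 3 of 58 groups of values of the named members 1 liver stood far from the others of its genotype, where chance gives about 2.9. Atp5b was 12.1 in Gsr-null replicate 6, against 12.3 to 12.4 in the other Gsr-null livers. Atp5pb was 12.6 in Gsr-null replicate 3, against 12.9 to 13.0. Sdha was 10.7 in WT replicate 4, below the other WT livers.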

How the results depend on the processing

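No member was called by limma under any of the alternatives run: other filters, quantile normalization, median centring, trend and robust variances, array weights, blocks, omitted livers, an adjusted p under 0.10 and averaged or separate probe sets. Over 21 refits the smallest adjusted p of a member was 0.465, and 1 member, Ndufa6 with array weights (-0.23, unadjusted p = 0.0415), reached an unadjusted p under 0.05. The median difference of the members, 0.012, was -0.041 to 0.049 with 1 liver left out and moved by less than the SD of 0.119 between livers under every alternative. The count above 0, 40, was 21 to 52 with 1 liver left out and 21 without Gsr-null replicate 4. Of 788 values of 36 named genes under alternatives 84 changed sign and 1 became called, Foxred1. Calls over all probe sets, 16 higher and 21 lower, were 7 and 7 with the filter at 6, 6 and 4 without Gsr-null replicates 2 and 3, 25 higher at an adjusted p under 0.10, and with 1 liver left out 9 to 24 higher and 5 to 19 lower. Higher calls moved by over 1.5 times without WT replicate 5 and lower calls without any WT replicate or Gsr-null replicate 2 or 3. The causes were not tested, beyond fewer probe sets or samples by construction. Replicate numbers do not pair the livers: deviations of same-numbered livers correlated at -0.173, 0.0361, -0.0561, -0.243 and -0.171. With the replicate number as a block there were 2 higher and 1 lower calls and 0 members called, their median difference being 0.014. Low signals limit Ndufb1, Cox7c and the isoforms below the filter.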
